A study of Caenorhabditis elegans with 40 samples.

Results

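The genes cct-1 to cct-8 encode the 8 subunits of the cytosolic chaperonin CCT, also called TRiC. They were chosen by name, and all 8 were found among the 9532 genes of the RNA count table and passed the filter on low counts, which left 9276 genes to be tested. CCT is a barrel of stacked rings in which each of the 8 different subunits holds a fixed place. It takes up newly made actin and tubulin, among other proteins, and lets them fold in its cavity with the use of ATP. All subunits are needed for one particle, so the question put to these data is how evenly their RNAs moved from library to library in worms that lacked a copy of a ribosomal protein gene.

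The study set Caenorhabditis elegans animals heterozygous for a null allele of 1 ribosomal protein gene, written (0), against wild-type animals that carried the same balancer, a chromosome rearrangement under which a heterozygous stock can be maintained. The mutant genotypes were rpl-33(0)/mc6 and rpl-5(0)/mc6 for the large ribosomal subunit, and rps-10(0)/tmc20 and rps-23(0)/tmc5 for the small one, all collected on day 4. The controls were wild-type/mc6, wild-type/tmc20 and wild-type/tmc5 on day 4 and on day 3. Whole animals grown at 16 °C were used, and the labels give 2 RNA-seq and 2 ribosome profiling (Ribo-seq) samples for every group. The labels give the L4 larval stage for the day 3 controls and the mutants, except for 1 RNA-seq replicate each of rpl-33(0)/mc6 and rpl-5(0)/mc6 without a stage. The day 4 controls are labelled pregravid adults, except 1 RNA-seq replicate each of tmc20 and tmc5, labelled L4. The study's methods describe the replicates of these libraries as independent biological ones.

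Some RNA columns departed from their labels. The columns of rpl-5(0)/mc6 held the same counts as those of rpl-33(0)/mc6, so these 2 libraries were used once, under the name shared pair, and which genotype they came from cannot be told apart. The tmc20 replicate 2 columns of day 3 and day 4 were also identical and were counted as 1 library. This left 17 libraries of 20 columns, with total counts from 1017790 to 2384190. Replicate numbers given here follow the column order within a group in both assays, as some headings were repeated or gave other numbers. They need not match the replicate numbers of the labels. Stage was checked with the summed normalized levels (CPM, counts scaled to a common library size) of molting genes, which are active in larvae, and of vitellogenin yolk genes, which are active in adults. The mc6 day 4 libraries had 182 and 97.4 CPM of molting genes, while the day 3 libraries had 8878 and 8356. The library labelled tmc5 day 3 replicate 1 had 355 CPM of molting and 68243 of yolk genes, against 8754 and 1951 in replicate 2 of the same label, and so went against its L4 label. Of the 2 tmc5 day 4 libraries, 1 had 7740 CPM of molting genes and the other 186. The tmc20 day 3 library had 5201 CPM of molting and 17300.5 of yolk genes. The tmc20 library of both ages had 5006 and 21898, and the tmc20 day 4 library 220 and 83791. The 6 mutant libraries had between 3781 and 17261 CPM of molting genes. Listed oocyte genes summed to 300.7 to 10247 CPM and listed sperm genes to 68.3 to 451.3 CPM per library. All 4 tmc5 libraries were kept in the comparison with rps-23(0)/tmc5, and the comparison of ages is given with and without them.

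The 8 genes lie on 4 chromosomes of WBcel235. By their usual names they follow the mammalian subunits in order, from alpha for cct-1 to theta for cct-8. The genes cct-1 (chrII:8185443-8187601), cct-2 (chrII:8927741-8929815), cct-3 (chrII:2233540-2243539) and cct-4 (chrII:8283667-8285711) are on chromosome II, all on the plus strand. The genes cct-5 (chrIII:4499188-4508114) and cct-6 (chrIII:5853530-5855687) are on the minus strand of chromosome III, cct-7 (chrV:1872246-1875505) is on the plus strand of chromosome V and cct-8 (chrIV:1087108-1093920) on the minus strand of chromosome IV. Their coding lengths run from 1587 bases in cct-2 to 1647 bases in cct-1, in 4 to 8 coding exons. The gene cct-1 overlaps T05C12.8 and cct-7 overlaps zig-11. The study's methods name a stranded kit for the RNA libraries, but whether the counts kept the strands apart was not checked.

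The coding sequences are related. The longest run of identical bases between any 2 of the 8 coding sequences was 17, between cct-1 and cct-7, and the shortest such maximum was 10. The stretch of 33 coding bases around the nucleotide-binding motif is shown for every subunit, because it is the best known conserved site of this family. Capitals mark the 9 bases that were identical in all 8 genes. The windows were placed by the amino acids of this motif, Gly-Asp-Gly-Thr or Gly-Asp-Asn-Thr. The capitals in its first Gly, its Asp and its Thr codon were therefore fixed by that choice and are not a finding. The sequences are from the reference genome and are given 5′ to 3′ on the coding strand, and that of cct-8 is spliced across an intron.
cct-1: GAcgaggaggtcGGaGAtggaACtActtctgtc
cct-2: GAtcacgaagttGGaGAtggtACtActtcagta
cct-3: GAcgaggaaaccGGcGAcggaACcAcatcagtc
cct-4: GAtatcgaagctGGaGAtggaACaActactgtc
cct-5: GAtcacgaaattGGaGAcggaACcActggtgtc
cct-6: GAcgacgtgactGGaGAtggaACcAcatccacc
cct-7: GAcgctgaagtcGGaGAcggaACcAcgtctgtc
cct-8: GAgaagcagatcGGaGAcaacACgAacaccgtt

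The region before each gene was read for the inverted repeats of heat shock elements, GAANNTTC and TTCNNGAA, since members that vary together could be read beside their upstream sequence. Each motif reads the same on both strands. In the 250 bases before the annotated start, GAANNTTC was present in 5 of 8 genes and in 15.72% of 19973 protein-coding genes, and TTCNNGAA in 5 of 8 and in 15.03%. Either motif was present in 7 of 8 genes, all but cct-2, and in 27.1% of all windows. The longer form, GAANNTTC followed by NNGAA or TTCNNGAA followed by NNTTC, holds both shorter motifs and was in 0 of 8 and in 1.63% of all. The windows of the 3 subunits that held both motifs are shown, with that of hsp-90, which encodes the cytosolic chaperone HSP90 and is described further on. Capitals mark the motifs.
cct-1 (chrII:8185193-8185442, plus strand): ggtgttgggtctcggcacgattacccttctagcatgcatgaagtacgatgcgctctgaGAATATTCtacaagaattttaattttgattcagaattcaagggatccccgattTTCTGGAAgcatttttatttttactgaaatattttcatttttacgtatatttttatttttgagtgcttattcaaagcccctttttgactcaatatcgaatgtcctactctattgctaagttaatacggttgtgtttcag
cct-5 (chrIII:4508115-4508364, minus strand): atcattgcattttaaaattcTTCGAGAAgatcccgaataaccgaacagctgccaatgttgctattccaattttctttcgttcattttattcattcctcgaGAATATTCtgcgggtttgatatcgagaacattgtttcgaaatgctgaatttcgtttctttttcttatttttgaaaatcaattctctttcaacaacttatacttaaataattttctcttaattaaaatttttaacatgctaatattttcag
cct-7 (chrV:1871996-1872245, plus strand): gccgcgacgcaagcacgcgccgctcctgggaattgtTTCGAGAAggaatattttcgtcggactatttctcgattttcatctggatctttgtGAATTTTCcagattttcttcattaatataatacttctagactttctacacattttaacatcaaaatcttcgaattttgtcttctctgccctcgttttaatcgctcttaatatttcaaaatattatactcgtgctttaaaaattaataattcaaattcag
hsp-90 (chrV:14684668-14684917, plus strand): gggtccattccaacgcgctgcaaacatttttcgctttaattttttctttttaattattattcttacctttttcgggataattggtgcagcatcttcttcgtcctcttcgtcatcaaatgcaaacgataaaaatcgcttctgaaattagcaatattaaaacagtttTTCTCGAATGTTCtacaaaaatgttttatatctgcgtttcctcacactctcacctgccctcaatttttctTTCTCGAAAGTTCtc
The windows of cct-1, cct-5 and cct-7 end in cag, the last bases of a splice acceptor, and many worm genes are annotated from a trans-splice site and not from the start of transcription. A match is a description of these letters only.

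Among the 11 control libraries, the order of the subunits by level was largely kept. In normalized CPM per kilobase of coding length, cct-7 had the highest mean, 309.6 ± 33.2 (SD, n = 11), and cct-3 the lowest, 140.2 ± 25.4. Between them came cct-5 with 290.5 ± 38.9, cct-8 with 222.0 ± 27.0, cct-1 with 205.6 ± 31.4, cct-4 with 186.0 ± 32.4, cct-6 with 182.2 ± 27.6 and cct-2 with 160.6 ± 21.8. The step between cct-5 and cct-8 and that between cct-6 and cct-2 had the same direction in 11 of 11 control libraries. The neighbours cct-4 and cct-6 kept their order in 7 of 11, and cct-7 and cct-5, like cct-2 and cct-3, in 9 of 11, so these pairs were not separated beyond their spread. The order of cct-8 and cct-1, and that of cct-1 and cct-4, was kept in 10 of 11.

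**Figure D1:**
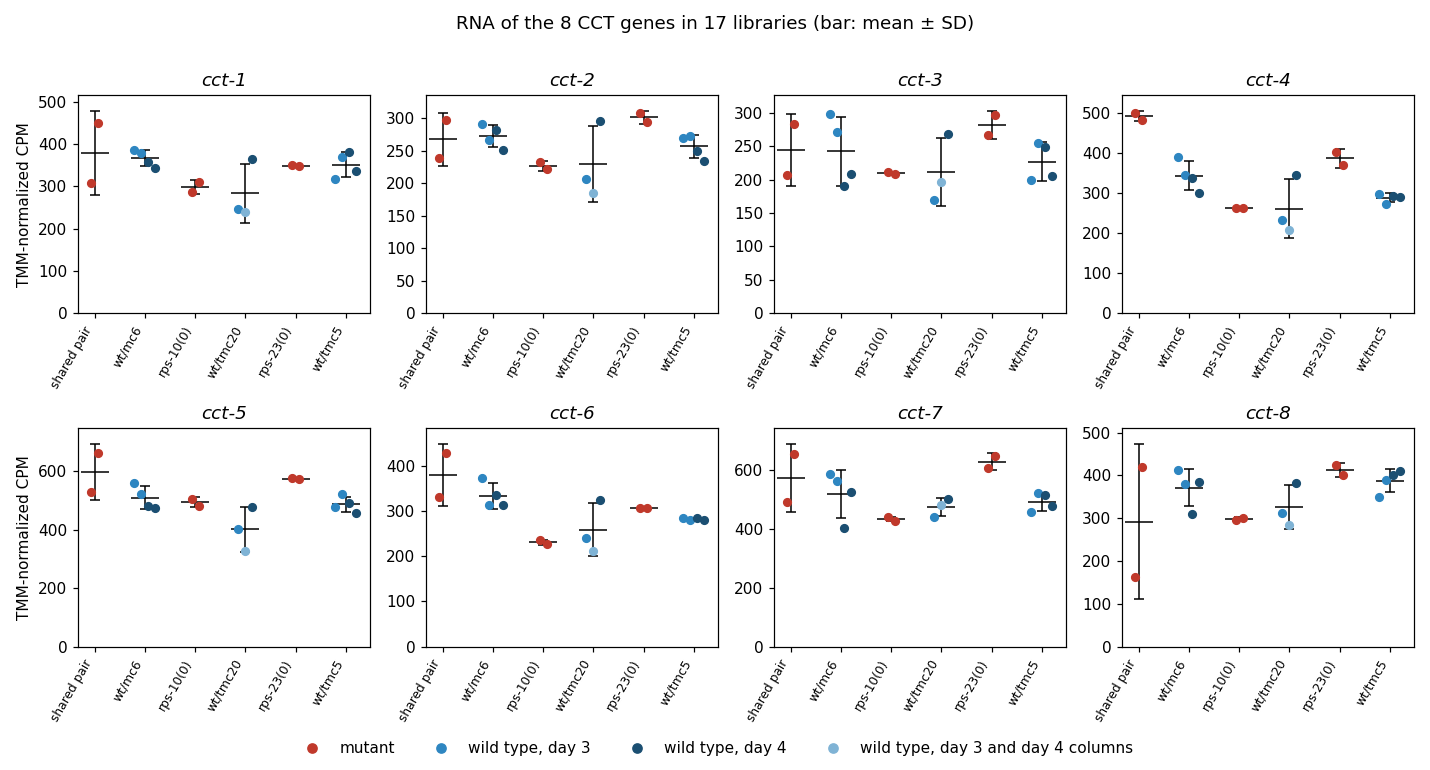
Each panel plots the TMM-normalized CPM of 1 CCT gene (y axis, from 0) in every RNA library, by group (x axis, each mutant group left of its controls); points are libraries, coloured by mutant or control age, and the bar is the mean with its SD. The cct-4 points of the shared pair, 501.2 and 483.4, lie above those of wild-type/mc6, and the cct-8 points of the shared pair, 163.4 and 419.3, lie farthest apart.

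Within most libraries, the 8 RNAs lay close together in their deviation from the controls. For each gene, the deviation of a library was its log2 CPM minus the mean of the 11 controls, and the SD of these deviations over the 8 subunits measured how unevenly they moved. That SD was between 0.07 and 0.21 in 16 of 17 libraries. In the same 16 libraries, the SD over the 368 genes with a mean level within the range of the subunits was between 0.64 and 1.13. In the library labelled tmc20 day 3 replicate 1, the deviations of the 8 genes were all below 0, between -0.44 and -0.17, and in the tmc20 library of both ages they were between -0.52 and -0.04. In mc6 day 3 replicate 1, by contrast, all 8 lay above it, by 0.18 to 0.41. The tmc20 controls were thus low as a whole complex, with the exception of the day 4 library, in which all 8 were above the mean. Not every library moved as a whole. The mean deviation was 0.03 in mc6 day 4 replicate 2, with 6 members above the control mean. It was -0.03 in tmc5 day 4 replicate 2, with 2 members above. In such libraries the small SD went with little shift of the whole set.

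**Figure D2:**
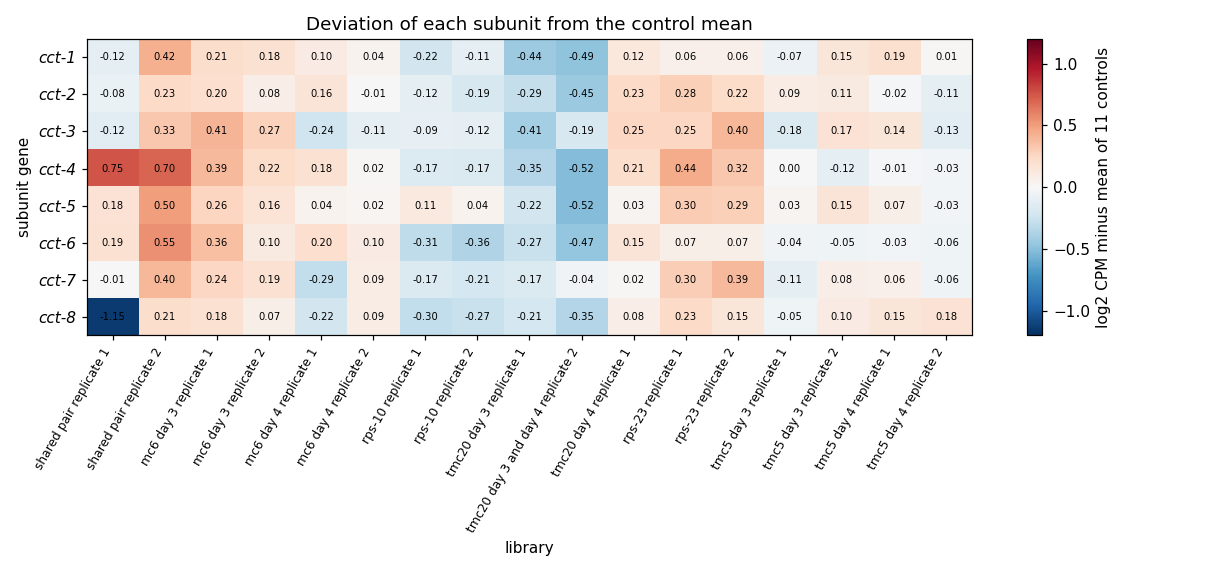
The heat map gives, for each CCT gene (rows) and RNA library (columns, each mutant group left of its controls), the log2 CPM minus the mean of the 11 control libraries; red is above and blue below that mean. Some columns are of 1 colour throughout and others mix both, and the darkest cell is cct-8 in shared pair replicate 1, at -1.15.

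The exception was replicate 1 of the shared pair, in which the SD over the 8 subunits was 0.53, beside 1.16 over the genes of like level. There the log2 deviation was -1.15 for cct-8 and 0.75 for cct-4, while cct-7 was at -0.01. The gene cct-8 had 163 counts in that library and 399 in replicate 2, at nearly equal totals. No other CCT gene differed so much: the log2 difference of replicate 1 minus replicate 2 was -1.36 for cct-8 and between -0.54 and 0.05 for the other 7. Of the 368 genes of like level, 6 (1.63%) had a difference as low as that of cct-8, and of all 9276 genes 547 (5.90%) did. Without cct-8, the SD over the remaining 7 subunits in that library was 0.31. In replicate 2, all 8 subunits were above the control mean, by 0.21 to 0.70. The cause of the low cct-8 value was not tested.

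**Figure D3:**
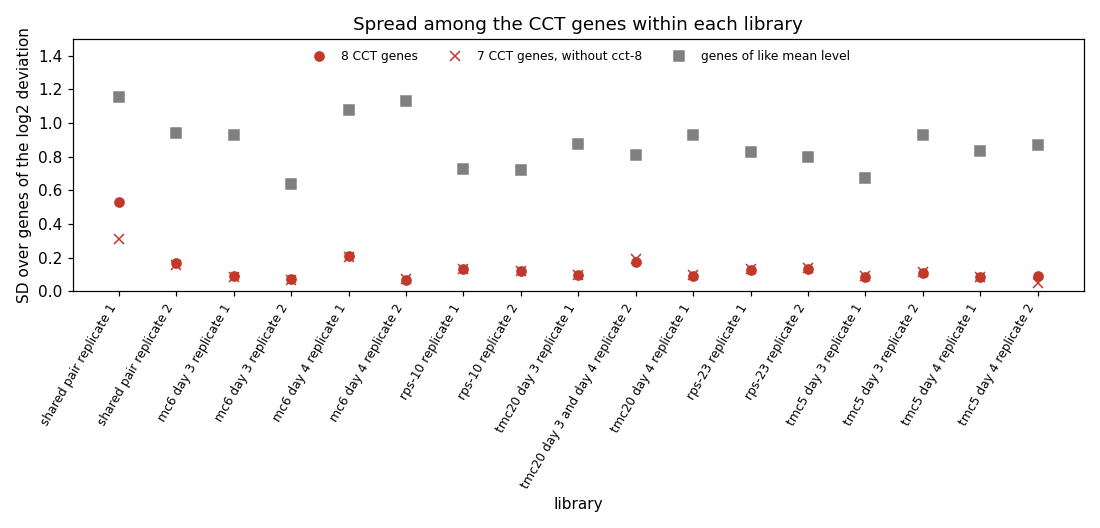
For each RNA library (x axis), filled circles give the SD of the log2 deviation over the 8 CCT genes (y axis), crosses the same without cct-8, and squares the SD over 368 genes of like mean level. The circles are at or below 0.21 except in shared pair replicate 1, at 0.53, and every square lies above its circle.

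Correlations give the same description. Over the 17 libraries, the Pearson correlation of log2 CPM between 2 subunits had a median of 0.65 over the 28 pairs (range -0.03 to 0.87), against a median of 0.00 between a subunit and any other gene tested. Without shared pair replicate 1, the 28 values ran from 0.58 to 0.91 with a median of 0.75. Within the 11 controls alone the median was 0.73. The libraries share their normalization, and these values have no test. The median with other genes takes in values of either sign, and no other set of genes was correlated in this way. By the median correlation with the other 7 subunits, cct-8 was the least alike, at 0.50, and reached 0.73 without that library.

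In the shared pair, no CCT gene passed the test against wild-type/mc6, whether called by edgeR or by DESeq2: 0 of 8 had an adjusted p below 0.05, where 2.54% of all genes tested did. Normalized CPM of cct-4, the delta subunit, were 501.2 and 483.4 in the shared pair, against 389.6 and 346.5 in wild-type/mc6 on day 3 and 337.5 and 300.5 on day 4. All mutant values of cct-4 lay above all control values, and it was the only member with an unadjusted p below 0.05, as 19.2% of all genes had. The fit gave a log2 fold change of 0.52 (SE 0.20, unadjusted p = 0.0232, adjusted p = 0.195 by edgeR's quasi-likelihood test). Complete separation upwards was seen for 1 of 8 members and for 17.7% of all genes, and downwards for 0 of 8 and for 12.8% of all genes.

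The other members of the shared pair did not separate from their controls. The theta subunit gene cct-8 had 163.4 and 419.3 CPM in the shared pair, against 411.6 and 379.7 on day 3 and 310.1 and 385.0 on day 4 in wild-type/mc6. One mutant library thus lay below and the other above all controls, and the fitted log2 change was -0.35 (SE 0.29, adjusted p = 0.502). With replicate 2 left out, the value of cct-8 was -1.22 with an adjusted p of 0.0304, so that 1 of 8 members passed, and with replicate 1 left out it was 0.15. For cct-1 and cct-5 the mutant values were 307.7 and 448.7, and 529.3 and 664.2 CPM. The control ranges for these genes were 344.5 to 387.1 and 475.4 to 559.8 CPM. The remaining log2 fold changes ran from -0.03 for cct-2 to 0.23 for cct-5, with SEs from 0.19 to 0.24. The median of the 8 was 0.09, beside -0.02 over all genes. When libraries were scaled by their totals alone, all genes had a median of -0.32 and the 8 members one of -0.21, and cct-4 was then the only member above 0.

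In rps-10(0)/tmc20, the direction of the CCT genes depended on which control libraries were used. None of 8 was called, beside 0.129% of all genes, and none had an unadjusted p below 0.05, with edgeR or DESeq2. The epsilon subunit gene cct-5 had 506.9 and 481.5 CPM in rps-10(0)/tmc20, against 401.1 on day 3, 478.8 on day 4 and 325.9 in the library of both ages in wild-type/tmc20. Its mutant values were above all 3 controls, with a fitted log2 change of 0.30 (SE 0.20, adjusted p = 1.00). For cct-7, the eta subunit, the mutants had 438.6 and 427.8 CPM and the controls 439.4 on day 3, 499.9 on day 4 and 481.3 in the library of both ages, so that it lay below them by a small margin, at -0.13 (SE 0.21). Complete separation upwards was seen in 1 of 8 members, beside 11% of all genes, and downwards in 1 of 8, beside 8.83%. The 8 log2 fold changes ran from -0.16 for cct-6 to 0.30, with a median of -0.02 beside -0.05 over all genes. Against the day 3 controls alone 7 of 8 values were above 0, with a median of 0.21, and against the day 4 controls alone 1 of 8 was, with a median of -0.12. The library of both ages was kept in each of these sets. Its molting and yolk levels were near those of the day 3 library, so the day 4 set mixed stages by these markers. Each age thus had 1 tmc20 library of its own, and age and single library cannot be told apart. Leaving out the tmc20 day 4 library gave a median of 0.20, and leaving out the tmc20 library of both ages gave -0.13. The 2 mutant libraries were close to each other, with summed CCT levels of 2470 and 2439 CPM. The controls had 2251 on day 3, 2129 in the library of both ages and 2958 on day 4, so the mutants lay within the control range.

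In rps-23(0)/tmc5, 7 of 8 members had a log2 fold change above 0, yet again none was called, beside 0.625% of all genes, and none had an unadjusted p below 0.05, with edgeR or DESeq2. The gene cct-4 had 403.4 and 370.8 CPM in rps-23(0)/tmc5, against 297.6 and 272.9 on day 3 and 294.2 and 290.7 on day 4 in wild-type/tmc5. This came to 0.42 on the log2 scale (SE 0.20, unadjusted p = 0.0576, adjusted p = 0.478). For cct-7 the values were 607.3 and 647.2 CPM in the mutants, against 457.2 and 520.8 on day 3 and 514.2 and 475.6 on day 4, which came to 0.35 on the log2 scale (SE 0.20, adjusted p = 0.573). The gamma subunit gene cct-3 had 266.9 and 296.3 CPM in the mutants, against 199.2 and 254.2 on day 3 and 248.9 and 206.1 on day 4, with a log2 fold change of 0.31 (SE 0.24). In these 3 genes the mutant values lay above all controls, as they did in cct-2, cct-5 and cct-6, so that 6 of 8 members separated upwards, beside 16.1% of all genes. The separation in cct-6 was narrow in absolute terms, with 306.3 CPM in both mutants and 280.3 to 284.8 in the controls. The members cct-1 and cct-8 overlapped their controls, with log2 fold changes of -0.01 and 0.09. The median over the 8 was 0.23, beside -0.08 over all genes, and it was 0.07 when libraries were scaled by totals, beside -0.25 over all genes. Molting genes summed to 10758 and 11926 CPM in these mutants and to 355, 8754, 7740 and 186 CPM in the wild-type/tmc5 libraries. Listed sperm genes summed to 370 and 306 CPM in the mutants and to 118, 131, 137 and 106 in the same controls. The part of stage or germline in the CCT values was not tested.

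**Figure D4:**
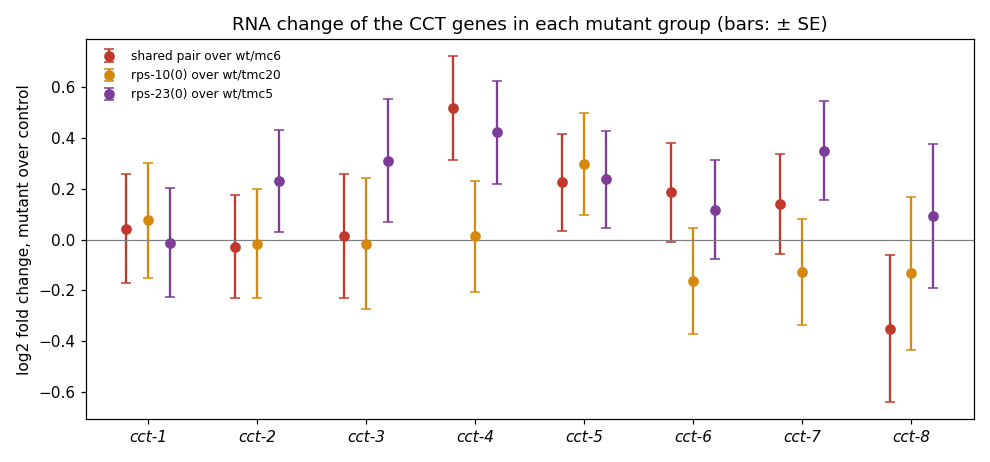
Points give the log2 fold change (y axis) of each CCT gene (x axis) for the shared pair over wild-type/mc6, rps-10(0) over wild-type/tmc20 and rps-23(0) over wild-type/tmc5, and bars are ± 1 SE. The highest point is cct-4 in the shared pair at 0.52 and the lowest cct-8 in the shared pair at -0.35.

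The effects of the 3 mutant groups were also compared with each other in the same edgeR fit. No CCT gene differed between the groups (0 of 8, beside 0.0216% of all genes), and the lowest unadjusted p was 0.247, for cct-4. The higher cct-4 value in 2 of the 3 groups is therefore not shown to be particular to them. With all 6 mutant libraries set against all 11 controls, 0 of 8 members were called, beside 1.91% of all genes, and none had an unadjusted p below 0.05, with edgeR or DESeq2. The highest log2 fold changes were those of cct-4, 0.34 (SE 0.16, adjusted p = 0.262), and of cct-5, 0.23 (SE 0.12, adjusted p = 0.283). For cct-5 the mutants had a mean of 557.4 ± 63.5 CPM (SD, n = 6) and the controls 473.9 ± 62.5 (SD, n = 11). The lowest was cct-8, at -0.13 (SE 0.17).

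The 2 control ages asked whether the complex follows the passage from larva to adult. In wild-type day 4 against day 3, with the balancer as a term and the tmc20 library of both ages left out, 0 of 8 members were called, and their log2 fold changes ran from -0.09 for cct-7 to 0.07 for cct-1. In that fit 0% of all genes were called, with 425 at an unadjusted p below 0.05 in edgeR and 45 called by DESeq2, and 0 CCT genes at an unadjusted p below 0.05 by either tool. Leaving out tmc5 day 4 replicate 1 alone gave 272 calls over all genes. Without the tmc5 controls, whose markers mixed the stages, 45.9% of all genes were called, and the CCT genes were again 0 of 8. Their values then lay between -0.17 (cct-7) and 0.10 (cct-2), and the lowest adjusted p was 0.484.

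The direction of the summed level differed between the balancers. In wild-type/mc6 the sum of the 8 genes was 2698 and 2804 CPM on day 4, against 3297 and 3045 on day 3. In wild-type/tmc20 it was 2958 CPM on day 4 and 2251 on day 3, with 1 library each. In wild-type/tmc5 it was 2867 and 2693 CPM on day 4 and 2652 and 2881 on day 3. The day 4 values were thus lower with mc6, higher with tmc20 and overlapping with tmc5, and this difference between balancers was not tested. Of the tmc5 libraries, those with high yolk levels had CCT sums of 2652 (labelled day 3) and 2693 CPM (day 4), and those with low yolk levels 2881 (day 3) and 2867 CPM (day 4). Fewer cells that hold these RNAs and less RNA per cell cannot be told apart in whole animals.

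The genes most like the CCT genes were ranked by the Pearson correlation of their log2 CPM with the mean CCT profile over the 17 libraries, among 9268 other genes. The first 5 were mmcm-1 (r = 0.88), T13C2.6 (0.86), hsp-90 (0.82), ubq-1 (0.82) and sti-1 (0.82). With the same mean profile, of which they are part, cct-8 had r = 0.57, cct-4 0.79 and cct-7 0.81. Each of these subunits thus lay below all 5 of the first-ranked genes. The other subunits had values from 0.87 (cct-3) to 0.92 (cct-1). Likeness to this profile was therefore not particular to the CCT genes. The product of mmcm-1 is the mitochondrial methylmalonyl-CoA mutase, ubq-1 encodes polyubiquitin and sti-1 encodes a cochaperone of HSP90. Without the shared pair, the values of the 5 first-ranked genes were between 0.79 and 0.93. Levels of hsp-90 were 5693 and 9577 CPM in the shared pair, against 5584 and 5392 on day 3 and 3265 and 4442 on day 4 in wild-type/mc6. Like cct-4, hsp-90 had higher values in the mutants there without passing the test (log2 fold change 0.71, SE 0.26, adjusted p = 0.169). In rps-23(0)/tmc5, sti-1 had 200.2 and 217.4 CPM, against 131.1 and 135.2 on day 3 and 111.6 and 109.0 on day 4 in wild-type/tmc5, a fitted log2 change of 0.78 (SE 0.25, adjusted p = 0.219). The likeness is a description over libraries that share their normalization.

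Partners and clients of CCT were read from listed genes. Of all genes, 2.54% were called in the shared pair, 0.129% in rps-10(0)/tmc20, 0.625% in rps-23(0)/tmc5 and 1.91% in all mutants. Prefoldin binds unfolded actin and tubulin and hands them to CCT, and of its 6 subunit genes 0 were called in any of the mutant comparisons. In the shared pair, 3 of these 6 had an unadjusted p below 0.05 (pfd-1, pfd-4 and pfd-5), beside 19.2% of all genes, with log2 fold changes of 0.68, 0.84 and 0.57 and adjusted p values of 0.144, 0.218 and 0.242. Their median was 0.43 in the shared pair, -0.25 in rps-10(0)/tmc20 and -0.04 in rps-23(0)/tmc5. Of 16 tubulin genes listed 11 were in the table. In the shared pair 1 was called, beside 2.54% of all genes, namely tbb-6, a beta-tubulin. It had 82.2 and 65.2 CPM in the shared pair. Wild-type/mc6 had 8.59 and 14.9 CPM on day 3 and 7.27 and 5.28 on day 4. The log2 difference was 3.04 (SE 0.69, adjusted p = 0.0336 by edgeR's quasi-likelihood test). The wild-type/tmc5 libraries had 26.1, 57.0, 73.3 and 23.2 CPM of tbb-6, and those of wild-type/tmc20 had 35.3, 25.9 and 2.11. Wild-type levels with another balancer thus reached those of the shared pair. The log2 fold change of tbb-6 was -1.76 (SE 0.82) in rps-10(0)/tmc20 and -0.05 (SE 0.68) in rps-23(0)/tmc5. All 5 actin genes were tested and 0 were called, with medians of 0.33, 0.22 and 0.27 in the shared pair, rps-10(0)/tmc20 and rps-23(0)/tmc5.

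The mitochondrial chaperonin, made by hsp-60 and Y22D7AL.10, is the relative of CCT in another compartment, and 0 of its 2 genes were called in any mutant group. The gene hsp-60 had 517.2 and 1052 CPM in the shared pair, against 2113 and 1920 on day 3 and 749.4 and 1142 on day 4 in wild-type/mc6, a fitted log2 change of -0.92 (SE 0.41, adjusted p = 0.240). Of hsp-1, hsp-90 and hsf-1, only hsp-1, the constitutive cytosolic HSP70, was called in the shared pair, beside 2.54% of all genes. Its adjusted p was 0.0442 by edgeR's quasi-likelihood test, with a fitted log2 change of 0.82 (SE 0.20). It had 9777 and 12869 CPM there, against 7386 and 7122 on day 3 and 5244 and 5908 on day 4 in wild-type/mc6. This call was lost in 21 of 28 alternatives and that of tbb-6 in 10 of 27, and both were lost when either library of the shared pair was left out.

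Ribo-seq gave few counts per gene. Its 20 libraries held between 1081 and 9637 counts in all, and the 8 CCT genes together had between 2 and 42 counts per library, so single members were not compared. Summed over all libraries, cct-5 had 25 counts in the mutants and 30 in the controls and was the most counted, while cct-4 had 13 and 14. Pooled within groups, the CCT genes took 0.480% of the counts of the mutants (145 of 30234, 95% Wilson interval 0.408 to 0.564) and 0.461% of the counts of the controls (165 of 35775, 0.396 to 0.537). These intervals cover counting error only, and they overlap widely.

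By genotype, the pooled shares were 0.364% in rpl-33(0)/mc6 (25 counts, interval 0.247 to 0.537) and 0.414% in rpl-5(0)/mc6 (55 counts, 0.319 to 0.539), against 0.467% in wild-type/mc6 (75 counts, 0.373 to 0.585). In rps-10(0)/tmc20 the share was 0.671% (43 counts, 0.499 to 0.903), against 0.379% in wild-type/tmc20 (39 counts, 0.278 to 0.518). The single libraries there had 0.798 and 0.5677% in the mutants and 0.185 to 0.584% in the controls, so they overlapped. In rps-23(0)/tmc5 the share was 0.596% (22 counts, 0.394 to 0.901), against 0.541% in wild-type/tmc5 (51 counts, 0.412 to 0.711). The shares were not tested, and for each mutant the range over single libraries overlapped that of its controls. In tmc20 this overlap came from day 4 replicate 2 alone, at 0.584%, with the next control library at 0.373%.

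**Figure D5:**
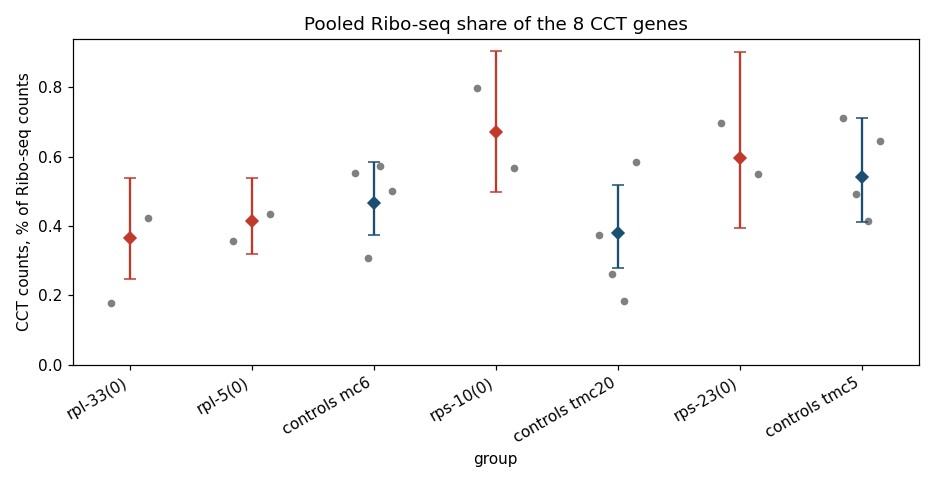
Diamonds give the CCT share of all Ribo-seq counts (y axis, percent) pooled over each group (x axis, each mutant left of its controls), with 95% Wilson intervals for counting error, and grey points are single libraries. The highest diamond is rps-10(0) at 0.671%, and its libraries overlap those of its controls.

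Set against RNA, the CCT share was higher in Ribo-seq. Over the 9525 genes found in both tables, the 8 genes took 0.513% of Ribo-seq counts in the mutants and 0.488% in the controls, and 0.274% and 0.289% of RNA counts. The ratio of the shares was 1.87 in the mutants (1.59 to 2.20) and 1.69 in the controls (1.45 to 1.96), with limits from the Ribo-seq counting error alone. It ran from 1.47 in rpl-33(0)/mc6 to 2.78 in rps-10(0)/tmc20 among the mutants, and from 1.55 to 1.96 among the control groups. The RNA of the shared pair served for both large-subunit genotypes. The ratio was not computed for other genes, so it is not shown to be particular to the CCT genes. The 2 assays also differ in library preparation, and molecular identifiers were collapsed in Ribo-seq.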

How the data were processed

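RNA-seq and Ribo-seq of whole animals were analysed. The authors deposited raw counts per gene for both assays, without normalization, and name WBcel235 as the build. For Ribo-seq the counts are of footprints after collapsing of molecular identifiers. Of the Ribo-seq columns, 6 could not be tied to a sample, repeated other columns and were not used, and identical RNA columns were used once. RNA counts were filtered with filterByExpr, scaled by TMM and tested by the quasi-likelihood method of the package edgeR (version 4.0.16, R version 4.3.3). Mutants and the controls of each balancer were groups of 1 fit, and p values were adjusted by Benjamini-Hochberg over all genes tested (threshold 0.05). Log2 CPM used a prior count of 1. DESeq2 1.42.0 was an alternative. Standard errors were derived from the fold change and its F value. Spreads, correlations and Ribo-seq shares are descriptions. The scripts were tested on simulated data. Loci and upstream windows came from the Ensembl 115 annotation and the RefSeq genome sequence. The named genes were the 8 members, the genes of the partner and chaperone lists that passed the test, and the 5 genes most correlated with the mean CCT profile; pfd-1, pfd-4, pfd-5 and hsp-60 were named after their values were seen. The members and lists were chosen with earlier results of these data known. Alternatives were 2 other scalings, 2 other filters, DESeq2, 1 control age alone, control ages as own groups, separate fits, a replicate block and leaving out each library. The tmc20 library of both ages was kept with either control age.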

Additional observations from a re-analysis of the deposited data

How the results depend on the processing

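Of 1016 values of the 8 genes under alternatives, 883 kept their sign and stayed uncalled, 132 changed sign and 1 became a call. Scaling by library totals turned the shared pair values of cct-1, cct-3, cct-5, cct-6 and cct-7 to -0.26, -0.28, -0.0712, -0.11 and -0.15, and those of all mutants for cct-1, cct-2, cct-3, cct-6 and cct-7 to -0.15, -0.11, -0.0547, -0.13 and -0.0318. It gave -0.051 for cct-6 and -0.0731 for cct-8 in rps-23(0), 0.0722 for cct-2 and 0.011 for cct-5 in the age comparison, and medians of -0.21 in the shared pair and 0.067 in rps-23(0). Against day 3 controls alone, cct-1, cct-3 and cct-7 were -0.0597, -0.26 and -0.0465 in the shared pair, cct-2, cct-3, cct-6 and cct-8 were 0.23, 0.20, 0.0468 and 0.0112 in rps-10(0), and the medians were -0.053 for the shared pair, 0.21 for rps-10(0), and 0.094 for rps-23(0). Against day 4 controls alone, cct-2 was 0.00656 in the shared pair, cct-1 and cct-4 were -0.0141 and -0.064 in rps-10(0), cct-1 was -0.0231 in all mutants, and the medians were 0.26 in the shared pair and -0.12 in rps-10(0). With each control age as a group, cct-2 and cct-3 were 0.0225 and 0.0191 in rps-10(0). Separate fits gave -0.0294 for cct-1 and -0.0543 for cct-3 in the shared pair and a median of 0.15 in rps-23(0).

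With DESeq2 size factors, cct-3 was -0.019 in the shared pair, cct-4 -0.0139 in rps-10(0), cct-1 -0.0151 in all mutants and cct-2 0.00818 by age, and with the DESeq2 test these were -0.0212, -0.0152, -0.0185 and 0.00425. Without a filter cct-3 was -0.010 in the shared pair and cct-2 0.0122 by age. With at least 10 counts in every library, cct-2 and cct-3 were 0.0379 and 0.0358 in rps-10(0) and cct-1 was 0.0326 in rps-23(0). In the age comparison, cct-2 and cct-8 were 0.0968 and -0.0543 without tmc5 controls, cct-1, cct-4, cct-6 and cct-8 were -0.0164, -0.070, -0.0259 and -0.00768 without tmc20 controls, and cct-2, cct-3, cct-5 and cct-7 were 0.0411, 0.20, 0.0144 and 0.0518 without mc6 controls.

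With the replicate block, the shared pair values of cct-1, cct-3 and cct-7 were -0.0762, -0.36 and -0.10, and the medians were -0.078 in the shared pair and 0.16 in rps-23(0). The same numbered columns without the block, an alternative chosen after seeing the data, gave -0.0352, -0.29 and -0.0357 for these genes and a median of 0.15 in rps-23(0). The numbers did not pair the samples (correlations of -0.01 to 0.04). The block called no CCT gene and 0, 4, 2 and 16 of all genes in the shared pair, rps-10(0), rps-23(0) and all mutants. It was not run for age, where it left no residual degrees of freedom.

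Leaving out 1 library at a time, the shared pair count of called CCT genes was 0 to 1 and its median -0.17 to 0.28. The ranges there were -0.29 to 0.26 for cct-1, -0.23 to 0.0908 for cct-2, -0.27 to 0.20 for cct-3, 0.018 to 0.35 for cct-5, -0.0433 to 0.33 for cct-6, -0.11 to 0.30 for cct-7 and -1.22 to 0.15 for cct-8. In rps-10(0) they were -0.0402 to 0.30 for cct-1, -0.15 to 0.21 for cct-2, -0.16 to 0.19 for cct-3, -0.13 to 0.26 for cct-4, -0.29 to 0.0315 for cct-6 and -0.13 to 0.20 for the median. In rps-23(0) they were -0.11 to 0.0357 for cct-1, 0.15 to 0.37 for cct-3, 0.26 to 0.45 for cct-4, -0.0465 to 0.12 for cct-8 and 0.12 to 0.27 for the median. In all mutants they were -0.12 to 0.0438 for cct-1, -0.0345 to 0.11 for cct-2, -0.11 to 0.13 for cct-6 and -0.25 to 0.0135 for cct-8. By age they were -0.0188 to 0.15 for cct-1, -0.10 to 0.0735 for cct-2, -0.24 to 0.0187 for cct-3, -0.0724 to 0.13 for cct-4, -0.0284 to 0.11 for cct-6, -0.13 to 0.0112 for cct-7 and -0.0102 to 0.12 for cct-8. A lone library left in a group is assumed to vary like the others. The rpl-33(0) Ribo-seq share was 0.178 to 0.424%. Without cct-5, Ribo-seq shares were 0.379% in rps-23(0), 0.397% in all mutants and 0.377% in all controls. The spread in shared pair replicate 1 was 0.572, 0.573, 0.572, 0.454, 0.573 and 0.312 without cct-1, cct-2, cct-3, cct-4, cct-7 and cct-8.

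DESeq2 called 568, 34, 157 and 435 of all genes in the shared pair, rps-10(0), rps-23(0) and all mutants, against 236, 12, 58 and 163 with edgeR. With day 4 controls alone the shared pair gave 971 and with day 3 controls alone 138, and separate fits gave 17, 0 and 6 in the 3 mutant groups. Groups of 2 libraries, stage differences among controls and Ribo-seq totals of at most 9637 limit what could be detected.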
